A study of Rattus norvegicus with 6 samples.

Results

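The genes described here are 10 secreted immune signals of rat bone marrow mesenchymal stem cells (BMSCs): the chemokines Cxcl1, Cxcl6, Ccl2, Ccl7, Ccl20 and Cx3cl1, the IL-6 family cytokines Il6, Il11 and Lif, and Csf1, the macrophage colony-stimulating factor. They were picked by gene symbol from the 33508 genes of the count table. All 10 were found, and all 10 were among the 12104 genes tested.

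RNA-seq was done on 3 libraries of BMSCs-OE-FNDC5, cells transduced with a lentivirus that overexpresses Fndc5, the precursor of irisin, and on 3 libraries of BMSCs-OE-NC, which carried a control vector. By the study's methods, the cells came from the marrow of male Sprague-Dawley rats aged 2 months, were at passage 3, and were transduced over 72 h (multiplicity of infection 10), with the virus medium replaced the next day. Both groups were then kept in hypoxia with serum deprivation (H/SD), that is 1% O2 without glucose or serum, for 24 h. The comparison therefore asks how Fndc5 overexpression differed from control vector within stressed cells, and no library of unstressed cells was analysed here. The promoter that drove Fndc5 and the number of rats that gave the cells were not found in the study's text or labels, and the plasmid descriptions it points to were not used here. The labels call the libraries biological replicates, but nothing says that they came from separate rats, cultures or transductions, so the p-values measure only the spread between these libraries, which may be technical.

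Chemokines are small secreted proteins that draw leukocytes along a gradient. CXCL1 and CXCL6 attract neutrophils, CCL2 and CCL7 attract monocytes, CCL20 attracts cells bearing CCR6, and CX3CL1 (fractalkine) is made as a membrane-bound adhesion molecule that proteases can release. IL-6, IL-11 and LIF signal through receptor complexes that share gp130 (Il6st) and activate STAT3. CSF1 is the survival factor of macrophages. Marrow stromal cells are known as sources of many of these proteins, and NF-kB is a known inducer of CXCL1, CCL2, CCL20 and IL-6.

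Control libraries held 17430287 to 17965722 counts, and libraries with Fndc5 held 16640635 to 17229490. Fndc5 had 17 to 25 counts in the former and 64195 to 65589 in the latter, so every library carried the transcript its label names. Levels are given as CPM, a gene's counts relative to the size of its library, with library sizes scaled by trimmed means of M values (TMM). The TMM factors ran from 1.13 to 1.14 for the controls and from 0.877 to 0.882 for BMSCs-OE-FNDC5. A positive log2 fold change means a higher level in BMSCs-OE-FNDC5. Genes with an adjusted p under 0.05 passed the test, which was edgeR's quasi-likelihood test with Benjamini-Hochberg adjustment over all genes tested. For any gene alone, exact permutation of 3 libraries against 3 gives at best p = 0.1. The RNA is from bulk cultures, in which fewer expressing cells and less RNA per cell cannot be told apart.

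Of the 10 genes, 4 were higher in BMSCs-OE-FNDC5 (Cxcl1, Ccl2, Ccl7 and Csf1) and 6 were lower (Cxcl6, Ccl20, Cx3cl1, Il6, Il11 and Lif). Among all genes tested, 36.9% were called higher and 38.8% lower, 75.7% in either direction, so passing the test was common in this comparison. With an absolute log2 fold change over 1 required as well, 0 of the 10 were higher and 4 were lower (Il11, Cxcl6, Ccl20 and Cx3cl1), against 9.84% and 17.5% of all genes tested. The groups did not overlap in any of the 10, and the same held for 78.3% of all genes tested, 37.9% higher and 40.4% lower. The median log2 fold change of the 10 was -0.54, and that of all genes tested was -0.04.

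**Figure D1:**
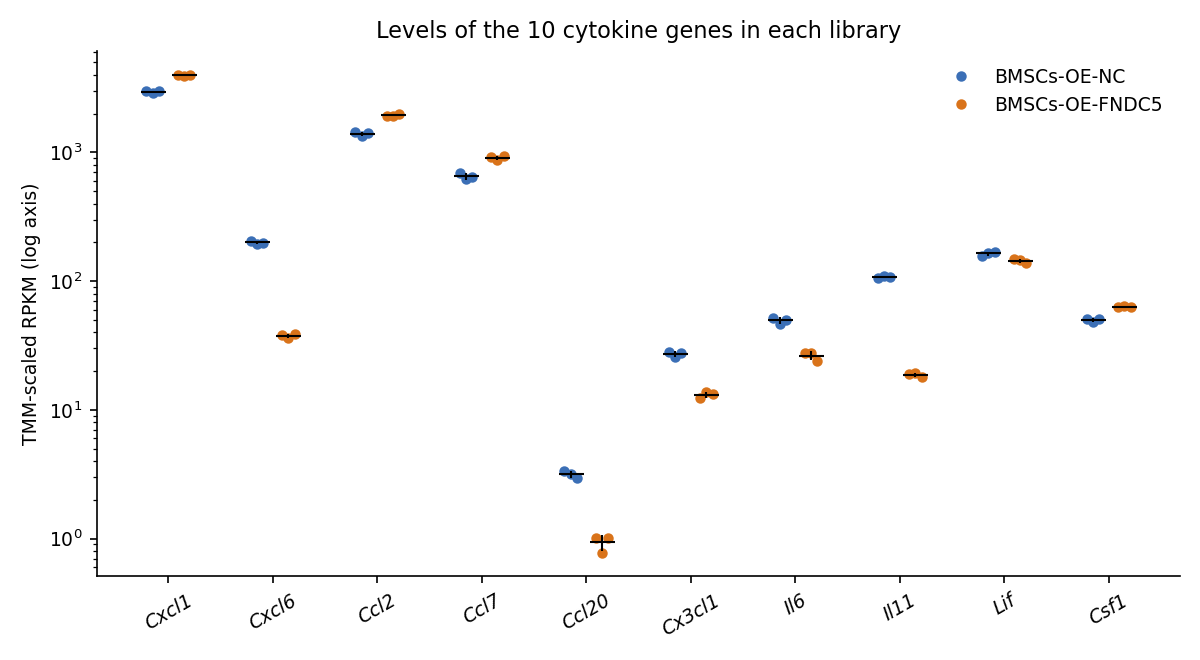
TMM-scaled CPM per kilobase of gene length (RPKM) of the 10 genes in each of the 6 libraries, on a log axis. Points are libraries and bars are mean and SD (n = 3 per group). Groups do not overlap for any of the 10 genes, and the widest gaps are those of Il11 and Cxcl6.

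Promoter sequences are shown for the 5 members that held a match to the NF-kB or AP-1 letters below. They are shown because among them are a pair, Cxcl1 and Cxcl6, that share the same match and moved in opposite directions with TMM scaling. The log2 fold change of Cxcl1 was 0.05 with library size alone. It was -0.00 once each library's trend of counts with gene length was removed (adjusted p = 0.87 by edgeR). RefSeq promoters on the GRCr8 assembly (250 bases before and 50 after each gene's start) were matched by symbol for 7 of the 10 genes. Ccl2, Lif and Csf1 were not among them. The 150 bases before the start are printed 5′ to 3′ on the gene's strand, in lower case, with matches to the NF-kB letters (GGGA and TTCC with any pair of bases between) or the AP-1 letters TGANTCA, on either strand, in capitals. Coordinates are of GRCr8.
Cxcl1 (chr14:17479322-17479471, minus strand): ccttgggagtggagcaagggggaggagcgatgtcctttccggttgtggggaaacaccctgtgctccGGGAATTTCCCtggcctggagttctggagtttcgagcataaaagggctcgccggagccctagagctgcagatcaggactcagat
Cxcl6 (chr14:17596418-17596567, minus strand): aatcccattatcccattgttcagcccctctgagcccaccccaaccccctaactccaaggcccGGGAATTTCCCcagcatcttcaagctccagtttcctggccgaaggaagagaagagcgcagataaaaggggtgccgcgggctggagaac
Ccl7 (chr10:67513945-67514094, plus strand): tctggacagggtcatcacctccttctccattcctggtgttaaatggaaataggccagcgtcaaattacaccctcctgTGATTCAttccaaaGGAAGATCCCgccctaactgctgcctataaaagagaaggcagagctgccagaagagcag
Il6 (chr4:5894576-5894725, minus strand): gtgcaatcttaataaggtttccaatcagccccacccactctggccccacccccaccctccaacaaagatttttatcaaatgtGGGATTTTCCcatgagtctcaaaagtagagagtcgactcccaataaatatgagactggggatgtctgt
Il11 (chr1:78098472-78098621, plus strand): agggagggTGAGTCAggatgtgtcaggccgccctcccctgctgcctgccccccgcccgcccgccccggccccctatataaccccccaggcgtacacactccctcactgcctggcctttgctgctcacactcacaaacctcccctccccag

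Cxcl1 and Cxcl6 held the identical run GGGAATTTCCC, which matches the NF-kB letters on both strands in overlapping positions, from -84 to -74 in Cxcl1 and from -88 to -78 in Cxcl6, counted from the start. Il6 held its NF-kB match at -68 to -59 and Ccl7 at -59 to -50, where it overlaps by a few bases with a GC box. The NF-kB letters were present in 4 of the 7 members' promoters and in 1.3% of all 33469 rat promoters of that length. The AP-1 letters were in Ccl7 and Il11 (7.33% of all promoters), and the C/EBP letters TTGCNNAA in Cxcl6 and Il6 (10.6%). The STAT letters TTCNNNGAA were in Ccl7 (8.87%), and TATAAA in Ccl7 and Cx3cl1 (14.2%). The GC box GGGCGG was in Cxcl6, Ccl7, Cx3cl1 and Il11 (33.1%), with matches that overlap each other in Il11. The hypoxia response core ACGTG was in none of the 7 (19.3% of all promoters), and the Ccl20 window held none of the exact letters searched. Other forms of these sites were not searched for, so a promoter without a match may still hold a site. A match is a description of letters, and no binding was measured here.

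**Figure D2:**
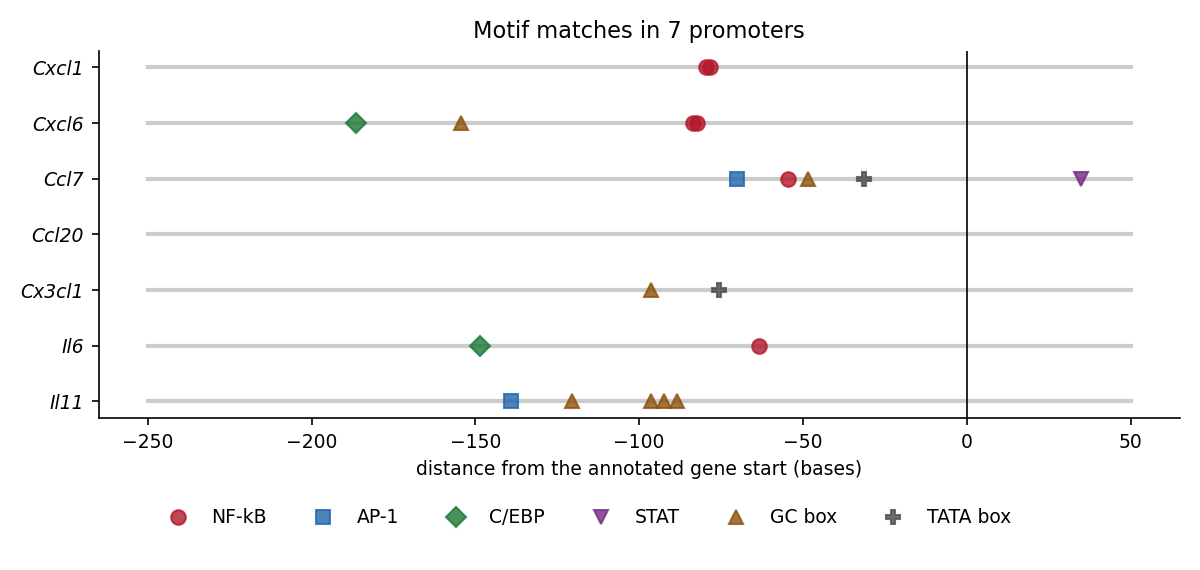
Positions of motif matches in the promoters of the 7 genes with a RefSeq promoter, as distance in bases from the gene's start. Each mark is a match on either strand, and the NF-kB matches of Cxcl1, Cxcl6, Ccl7 and Il6 lie between -88 and -50.

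Cxcl1 (ENSRNOG00000002802), a neutrophil chemokine, was the most abundant of the 10. Its level was 2754, 2689 and 2771 CPM in BMSCs-OE-NC replicates 1, 2 and 3, and 3697, 3625 and 3697 CPM in BMSCs-OE-FNDC5. All 3 BMSCs-OE-FNDC5 libraries lay above all 3 controls. The mean went from 2738 ± 42.8 to 3673 ± 41.6 CPM (SD, n = 3 each), and the log2 fold change came to 0.42 (standard error 0.02, adjusted p = 2.4e-09 by edgeR). The raw counts were close in both groups, 53967 to 56052 in the controls and 53160 to 55905 with Fndc5, so the size of this rise came from the TMM factors.

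Ccl2 and Ccl7, monocyte chemokines, rose to almost the same extent. Ccl2 (ENSRNOG00000007159) was at 1196, 1121 and 1174 CPM in BMSCs-OE-NC and at 1604, 1603 and 1661 CPM in BMSCs-OE-FNDC5 (log2 fold change 0.48, standard error 0.03, adjusted p = 2.6e-08 by edgeR). Ccl7 (ENSRNOG00000000239) was at 591, 526 and 547 CPM in BMSCs-OE-NC and at 778, 744 and 798 CPM in BMSCs-OE-FNDC5 (log2 fold change 0.48, standard error 0.04, adjusted p = 9.9e-07 by edgeR). For each gene the lowest BMSCs-OE-FNDC5 library was above the highest control. These genes lie 9.2 kb apart on chromosome 10 of the count table, Ccl2 from 69412017 to 69413870 and Ccl7 from 69423086 to 69424979, both on the plus strand. The table names no rat build.

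The rises of Cxcl1, Ccl2 and Ccl7 depended on how libraries were compared. With library size alone as the scale, their log2 fold changes were 0.05, 0.11 and 0.11 (adjusted p = 0.013, 0.0022 and 0.026 by edgeR), while the median of all genes was then -0.41. After each library's trend of counts with gene length was removed, they were -0.00, 0.01 and 0.02 (adjusted p = 0.87, 0.59 and 0.62 by edgeR). Short genes stood higher in BMSCs-OE-FNDC5 than long ones, with a median log2 fold change of 0.64 over 1613 tested genes under 1000 bases and of -0.71 over 2344 above 4000, and the 3 chemokines have table lengths of 926, 835 and 850 bases.

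Cxcl6 (ENSRNOG00000002843), a neutrophil chemokine, moved the other way. It had 336, 316 and 323 CPM in BMSCs-OE-NC and 61.8, 58.4 and 63.1 CPM in BMSCs-OE-FNDC5. Every BMSCs-OE-FNDC5 library was far below every control. It was 5.31-fold lower (log2 fold change -2.41, 95% interval -2.50 to -2.32, adjusted p = 1.8e-12 by edgeR), and it stayed between -2.78 and -2.35 under all 17 alternative analyses. Cxcl6 lies on chromosome 14 from 18860264 to 18862407, on the same strand as Cxcl1 (18743685 to 18745457), with 114.8 kb between them.

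The neighbours of this pair were looked at for their position, after the values were known. Cxcl2, 10.3 kb from Cxcl1 and likewise a neutrophil chemokine, was low, at 140 to 233 counts, and rose (log2 fold change 0.93, adjusted p = 5.2e-05 by edgeR). Cxcl3, between Cxcl1 and Cxcl6, was abundant and slightly lower with TMM scaling (1919 ± 33.7 to 1758 ± 15.2 CPM, SD, n = 3 each, log2 fold change -0.13, adjusted p = 1.5e-04 by edgeR), and was -0.50 with library size alone and -0.33 with the length trend removed. Pf4 and Ppbp, in the same stretch, had at most 1 count in any library. Along this stretch the 4 expressed chemokine genes thus gave log2 fold changes of 0.93, 0.42, -0.13 and -2.41 in the order Cxcl2, Cxcl1, Cxcl3 and Cxcl6. They are relatives in sequence, and reads that fit several of them may have been assigned unevenly.

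Ccl20 (ENSRNOG00000015992), the ligand of CCR6, was the scarcest of the 10. It had 54, 50 and 46 counts in BMSCs-OE-NC and 12, 9 and 12 counts in BMSCs-OE-FNDC5, that is 2.32 to 2.65 against 0.614 to 0.795 CPM. The groups were apart, at low counts. The log2 fold change was -1.75 with a wide 95% interval of -2.33 to -1.18 (adjusted p = 8.9e-05 by edgeR), and on log2(FPKM + 1), which compresses low values, it was -1.09.

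Cx3cl1 (ENSRNOG00000016326), fractalkine, had 88.2, 80.2 and 86.7 CPM in BMSCs-OE-NC and 38.7, 42.7 and 41.3 CPM in BMSCs-OE-FNDC5. Its libraries fell into separate ranges, and it was 2.08-fold lower (log2 fold change -1.06, standard error 0.05, adjusted p = 9.7e-09 by edgeR). With the length trend removed the change was -0.70, still past the test. Adam17, a protease known to release fractalkine from the membrane, was also lower (55.1 ± 2.15 to 33.8 ± 2.95 CPM, SD, n = 3 each, log2 fold change -0.70, adjusted p = 1.6e-06 by edgeR), with -0.18 once the length trend was removed and -1.07 with library size alone. Rhbdf1 and Rhbdf2, which carry ADAM17 to the cell surface, rose by 0.42 and 0.44 on the log2 scale (adjusted p = 7.3e-06 and 1.4e-05 by edgeR), but by 0.05 and 0.07, not past the test, with library size alone. Of all genes tested, 36.9% were higher and 38.8% lower, and of 4 tested genes of this shedding group 2 were higher and 2 lower. The other lower gene was Adam10, named here after its values were seen (20.3 ± 1.19 to 4.66 ± 0.576 CPM, SD, n = 3 each, log2 fold change -2.12, adjusted p = 3.2e-08 by edgeR).

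**Figure D3:**
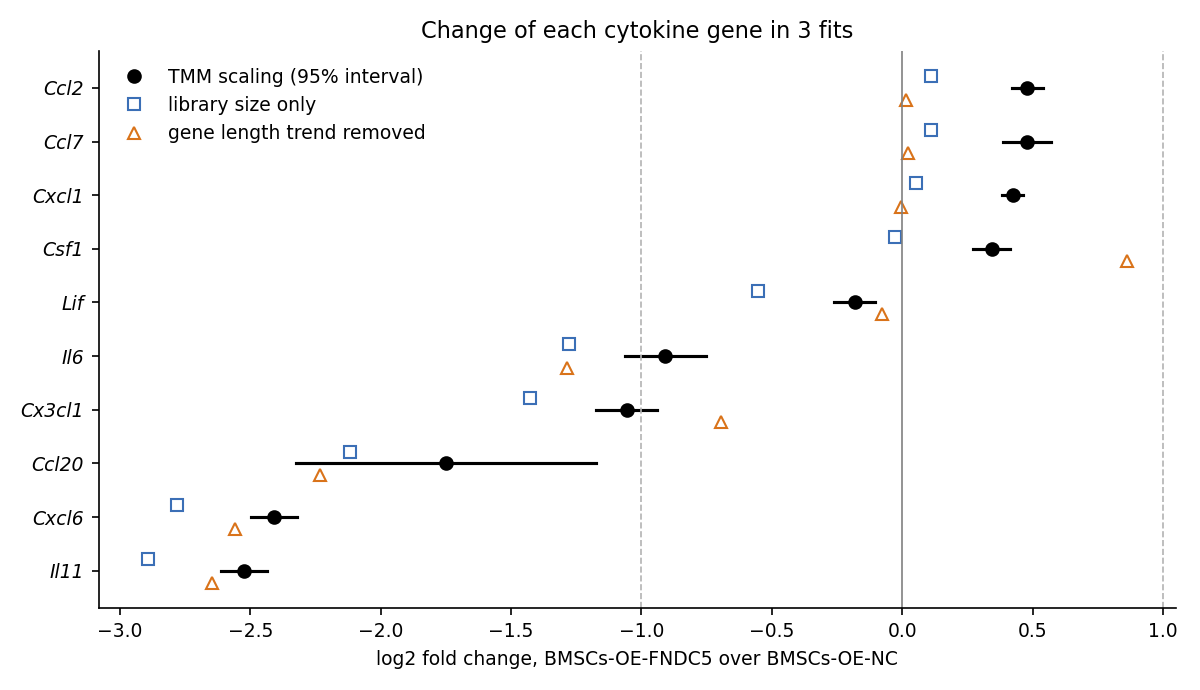
Log2 fold change of the 10 genes, positive where BMSCs-OE-FNDC5 was higher, in 3 fits: TMM scaling with its 95% interval, library size only, and the gene length trend removed. Cxcl6, Ccl20, Cx3cl1, Il6 and Il11 stay below 0 in all 3, while Cxcl1, Ccl2, Ccl7 and Csf1 lie near 0 in at least one.

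All 3 IL-6 family members were lower in BMSCs-OE-FNDC5, to very different extents. Il11 (ENSRNOG00000017386), a cytokine of stromal cells, showed the largest fold change of the 10. It had 179, 184 and 183 CPM in BMSCs-OE-NC and 31.9, 32.5 and 30.5 CPM in BMSCs-OE-FNDC5, with little spread inside either group. It was 5.75-fold lower (log2 fold change -2.52, standard error 0.04, adjusted p = 1.3e-12 by edgeR) and ranged from -2.89 to -2.44 over the 17 alternatives.

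Il6 (ENSRNOG00000010278) had 54.4, 48.2 and 52.4 CPM in BMSCs-OE-NC and 28.8, 28.7 and 25.0 CPM in BMSCs-OE-FNDC5. No BMSCs-OE-FNDC5 library reached the lowest control. The mean went from 51.7 ± 3.16 to 27.5 ± 2.16 CPM (SD, n = 3 each), and the log2 fold change came to -0.91 (standard error 0.07, adjusted p = 3.6e-07 by edgeR). Over the alternatives it ran from -1.29 to -0.84.

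Lif (ENSRNOG00000007002) differed least of the 10 with TMM scaling. It had 351, 365 and 377 CPM in BMSCs-OE-NC and 329, 327 and 309 CPM in BMSCs-OE-FNDC5, so the groups were apart by only a small gap. Its log2 fold change came to -0.18 (standard error 0.04, adjusted p = 7.0e-04 by edgeR), and with the length trend removed it was -0.08 and did not pass (adjusted p = 0.086 by edgeR). With library size alone it was -0.55, a larger change than those of Cxcl1, Ccl2, Ccl7 and Csf1 in that fit.

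Csf1 (ENSRNOG00000018659), the macrophage growth factor, had 204, 194 and 207 CPM in BMSCs-OE-NC and 253, 257 and 257 CPM in BMSCs-OE-FNDC5. Every BMSCs-OE-FNDC5 library was above the controls, and the log2 fold change came to 0.34 (standard error 0.03, adjusted p = 2.0e-06 by edgeR). Its direction rested on the scale: with library size alone it was -0.03 (adjusted p = 0.45 by edgeR), and with the length trend removed it was 0.86. Csf1 is the longest of the 10, with a table length of 4048 bases.

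Levels of different genes were compared per length, as RPKM, which is TMM-scaled CPM per kilobase of the length each gene has in the count table. In BMSCs-OE-NC the order was Cxcl1 (2957 ± 46.2), Ccl2 (1394 ± 46.0), Ccl7 (653 ± 38.7), Cxcl6 (200.04 ± 6.09), Lif (164 ± 5.88), Il11 (108 ± 1.69), Csf1 (49.8 ± 1.74), Il6 (49.4 ± 3.02), Cx3cl1 (27.2 ± 1.35) and Ccl20 (3.16 ± 0.209 RPKM, SD, n = 3 each). Csf1 and Il6 overlapped there, and no other neighbours did. In BMSCs-OE-FNDC5 the top 3 were unchanged in order at 3967 ± 44.97, 1944 ± 39.7 and 910 ± 32.2 RPKM, and Lif (144 ± 5.00) and Csf1 (63.2 ± 0.566) stood above Cxcl6 (37.6 ± 1.51), Il6 (26.3 ± 2.06) and Il11 (18.7 ± 0.627 RPKM, SD, n = 3 each). Cx3cl1 (13.1 ± 0.648) and Ccl20 (0.933 ± 0.132 RPKM, SD, n = 3 each) stayed last, and no neighbours overlapped.

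The 10 genes together took 5527 to 5755 CPM in control libraries and 6720 to 6883 CPM with Fndc5. That rise rested on the TMM factors. Relative to library size alone, the sum was lower in every BMSCs-OE-FNDC5 library than in any control. Cxcl1, Ccl2 and Ccl7 made up 78.6 ± 0.244% of that sum in BMSCs-OE-NC and 89.1 ± 0.288% in BMSCs-OE-FNDC5 (SD, n = 3 each). The RNA of these 10 genes was thus weighted further toward these 3 chemokines, a share that does not depend on the library scale. Other chemokines, such as Cxcl3 and Cxcl12, are outside this sum. The share was not computed with the length trend removed, where the log2 fold changes of the 3 were -0.00, 0.01 and 0.02.

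Ratios of members within a library are likewise free of the library scale. The pairs were chosen after the values were seen, so the p-values given for them are a description only and no independent support. The log2 RPKM ratio of Cxcl1 to Cxcl6 was 3.85, 3.90 and 3.91 in BMSCs-OE-NC and 6.71, 6.77 and 6.68 in BMSCs-OE-FNDC5, a difference of means of 2.83. On the linear scale, Il6 to Il11 was 0.492, 0.424 and 0.462 in BMSCs-OE-NC and 1.46, 1.43 and 1.33 in BMSCs-OE-FNDC5, so that Il11 was above Il6 per length in the controls and below it with Fndc5. Lif to Il11 lay between 1.49 and 1.56 in the controls and between 7.64 and 7.82 with Fndc5, also on the linear scale. Each of these 3 ratios separated the groups completely (two-sided exact permutation p = 0.1 for each, the lowest value possible here). The log2 ratio of Ccl2 to Ccl7 was 1.04, 1.12 and 1.13 in BMSCs-OE-NC and 1.07, 1.13 and 1.08 in BMSCs-OE-FNDC5, with means of 1.10 ± 0.05 and 1.10 ± 0.03 (SD, n = 3 each, two-sided exact permutation p = 1).

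**Figure D4:**
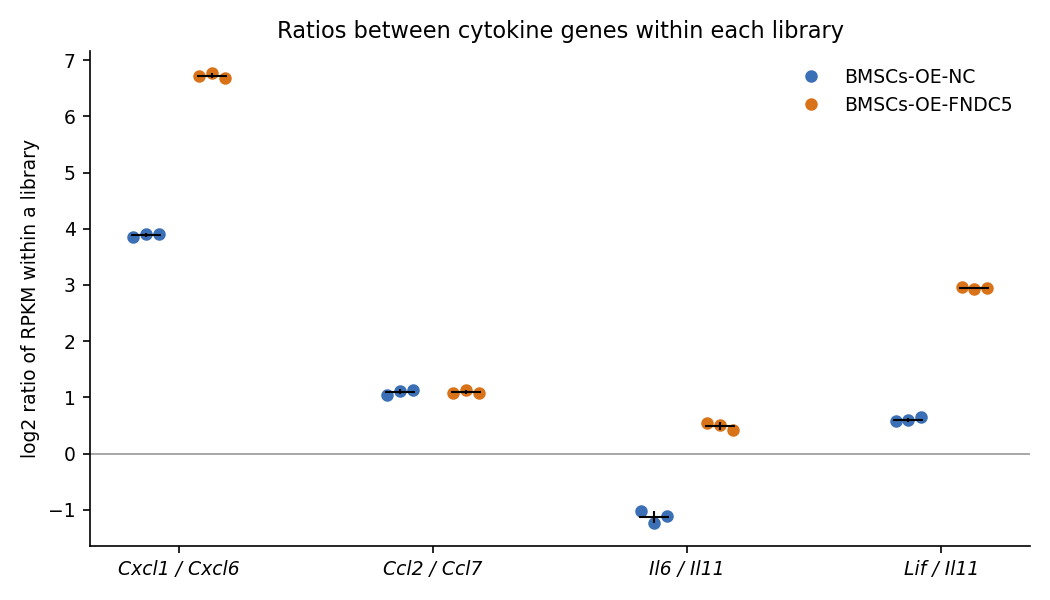
Within-library ratios of RPKM on a log2 axis for 4 pairs of members in each library (n = 3 per group, bars are mean and SD). Cxcl1 to Cxcl6, Il6 to Il11 and Lif to Il11 are higher in all 3 BMSCs-OE-FNDC5 libraries, and Ccl2 to Ccl7 overlaps.

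Of all genes tested, 38.8% were lower and 36.9% higher. Of 4 tested receptor genes of the IL-6 family and CSF1, 3 were lower and 1 was higher, with a median log2 fold change of -1.38. Il6st, the shared signal chain gp130, had 227, 262 and 263 CPM in BMSCs-OE-NC and 49.6, 47.7 and 51.5 CPM in BMSCs-OE-FNDC5 (log2 fold change -2.34, standard error 0.06, adjusted p = 4.1e-11 by edgeR). Osmr, the oncostatin M receptor chain, went from 46.0 ± 2.56 to 11.0 ± 0.860 CPM (SD, n = 3 each, log2 fold change -2.06, adjusted p = 1.1e-09 by edgeR). Il6r, the IL-6 binding chain, was lower by a smaller margin (20.7 ± 0.671 to 12.8 ± 0.230 CPM, SD, n = 3 each, log2 fold change -0.70, adjusted p = 2.1e-05 by edgeR), and with the length trend removed its change was -0.09 and did not pass.

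Il11ra1, the IL-11 binding chain, was the exception, with 220, 229 and 218 CPM in BMSCs-OE-NC and 482, 480 and 432 CPM in BMSCs-OE-FNDC5 (log2 fold change 1.06, standard error 0.04, adjusted p = 1.4e-09 by edgeR). Every library with Fndc5 was above every control for Il11ra1, and below every control for Il6st, Osmr and Il6r. IL-11 signals through Il11ra1 together with Il6st, and its ligand gene was the one that was 5.75-fold lower. Lifr and Cntfr had 0 counts in all 6 libraries, and Csf1r, the CSF1 receptor, had 0 to 6 counts.

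Most receptors of the chemokine members that are in the table were undetected, and Ccr2, a receptor of CCL2 and CCL7, was not analysed here. Cxcr1, Cxcr2, Ccr3, Ccr6 and Cx3cr1 had 0 counts in every library, which allows a level of up to 0.147 to 0.205 CPM per library (3 counts, counting error only). Ccr1, a receptor of CCL7, was at 0.981 ± 0.117 CPM in BMSCs-OE-NC and 2.43 ± 0.407 CPM in BMSCs-OE-FNDC5 (SD, n = 3 each, log2 fold change 1.30, adjusted p = 8.9e-04 by edgeR). The more abundant scavenging receptor Ackr3, which takes up CXCL12, rose from 269 ± 7.24 to 368 ± 11.2 CPM (SD, n = 3 each, log2 fold change 0.45, adjusted p = 1.9e-07 by edgeR). Its raw counts were close, 5227 to 5545 in the controls and 5380 to 5701 with Fndc5, and with library size alone its log2 fold change was 0.08. Ackr4, a scavenger of CC chemokines, had a log2 fold change of 0.09 (adjusted p = 0.033 by edgeR), which turned to -0.02 with upper-quartile scaling. With library size alone it passed as lower (-0.28, adjusted p = 1.7e-05 by edgeR). The call of Ackr4 was also lost without control replicate 1 or 3 (0.09 and 0.05) and without BMSCs-OE-FNDC5 replicate 1 or 2 (0.09 each). Cxcr3 and Ccr10 did not pass (log2 fold change -1.05 and -0.07, adjusted p = 0.11 and 0.89 by edgeR), though Cxcr3 passed without BMSCs-OE-FNDC5 replicate 1 (-1.97).

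Among 29 other chemokine genes, 8 were tested, of which 2 were higher, 4 were lower and 2 did not pass, with a median log2 fold change of -0.27. The shares over all genes tested were 36.9% higher and 38.8% lower. Cxcl12, the stromal chemokine that retains haematopoietic cells in marrow, had 836, 812 and 830 CPM in BMSCs-OE-NC and 239, 253 and 261 CPM in BMSCs-OE-FNDC5 (log2 fold change -1.72, adjusted p = 6.2e-12 by edgeR). Cxcl16, a membrane-bound chemokine like fractalkine, was lower (189 ± 2.45 to 141 ± 7.34 CPM, SD, n = 3 each, log2 fold change -0.42, adjusted p = 1.8e-06 by edgeR). Cxcl13, a B cell chemokine named here after its values were seen, went from 207 ± 17.4 to 47.5 ± 4.20 CPM (SD, n = 3 each, log2 fold change -2.12, adjusted p = 3.7e-10 by edgeR).

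Beside shares of 36.9% higher and 38.8% lower over all genes tested, 7 other ligands of the IL-6 and colony-stimulating families were tested. Of these 7, 3 were higher, 2 lower and 2 did not pass (median log2 fold change 0.46). The count of lower genes was 1 when control replicate 1 or 2 or BMSCs-OE-FNDC5 replicate 2 or 3 was left out, with DESeq2 and without a filter. Clcf1, a gp130 ligand, was lower (210 ± 7.55 to 155 ± 4.16 CPM, SD, n = 3 each, log2 fold change -0.44, adjusted p = 6.0e-07 by edgeR). Csf3, the granulocyte factor, did not pass (log2 fold change 0.10, adjusted p = 0.077 by edgeR) except when BMSCs-OE-FNDC5 replicate 1 was left out (0.13) and under some scalings. With library size alone it passed as lower (-0.27, adjusted p = 2.3e-04 by edgeR).

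For JAK-STAT3 signalling too, the shares over all genes tested were 36.9% higher and 38.8% lower. Of 15 tested genes of this list, 4 were higher, 7 lower and 4 did not pass (median log2 fold change -0.10). The count of higher genes was 2 without control replicate 1 or 2 or BMSCs-OE-FNDC5 replicate 2, 1 with upper-quartile scaling or library size alone, and 8 with the length trend removed. The count of lower genes was 11 with library size alone. Stat3 itself was lower with TMM scaling (630 ± 9.86 to 478 ± 3.85 CPM, SD, n = 3 each, log2 fold change -0.40, adjusted p = 4.6e-08 by edgeR). With the length trend removed it passed as higher (0.18, adjusted p = 3.2e-05 by edgeR). Cebpd, a transcription factor induced by IL-6, was lower (log2 fold change -0.43, adjusted p = 2.5e-08 by edgeR), and its relative Cebpb did not pass (-0.02, adjusted p = 0.41 by edgeR) but was lower, by calls, with upper-quartile scaling (-0.13), library size alone (-0.39) and the length trend removed (-0.25).

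All 17 listed NF-kB genes were tested, with 7 higher, 9 lower and 1 not passing (median log2 fold change -0.13). For this list and the upstream list below, the shares over all genes tested were 36.9% higher and 38.8% lower. The precursor subunits diverged: Nfkb1 was at 255 ± 3.95 CPM in BMSCs-OE-NC and 146 ± 2.65 CPM in BMSCs-OE-FNDC5 (SD, n = 3 each, log2 fold change -0.80, adjusted p = 8.1e-10 by edgeR), whereas Nfkb2 was higher (log2 fold change 0.52, adjusted p = 2.8e-08 by edgeR). The change of Nfkb1 was -0.31 with the length trend removed, and that of Nfkb2 was 0.15 with library size alone. Nfkbia, the inhibitor that NF-kB itself induces, was slightly lower (-0.13, adjusted p = 0.0023 by edgeR). Among 11 tested inflammatory ligands and receptors that act upstream, 3 were higher, 6 lower and 2 did not pass (median -0.14). Of these, Tnfrsf1a was lower (-0.13, and -0.06 without passing when the length trend was removed), and Tlr2 and Myd88 were higher (0.27 and 0.33) with TMM scaling but -0.10 and -0.04 with library size alone. In that last fit Tlr2 passed as lower (adjusted p = 0.028 by edgeR) and Myd88 did not pass. Tnf had 0 counts in all 6 libraries.

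Messages of chemokines and of IL-6 are known to be short-lived. Of 10 tested genes that set the decay or stability of such messages, 1 was higher, 8 lower and 1 did not pass (median log2 fold change -0.41). Among all genes tested, 36.9% were higher and 38.8% lower. The count of higher genes in this list was 0 with library size alone and 3 with the length trend removed. Whether message decay differed was not tested. Zfp36l1, which promotes decay of AU-rich messages, went from 149 ± 5.07 to 63.5 ± 1.90 CPM (SD, n = 3 each, log2 fold change -1.23, adjusted p = 2.8e-10 by edgeR). Auh, an AU-binding protein, was the one that rose (0.37, adjusted p = 8.1e-07 by edgeR), and its change was -0.00 with library size alone. Zc3h12a, the regnase that cleaves Il6 mRNA, did not pass (0.07, adjusted p = 0.12 by edgeR). It passed as higher without BMSCs-OE-FNDC5 replicate 3 (0.11) and with the length trend removed (0.37). With library size alone it passed as lower (-0.30, adjusted p = 5.1e-05 by edgeR).

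**Figure D5:**
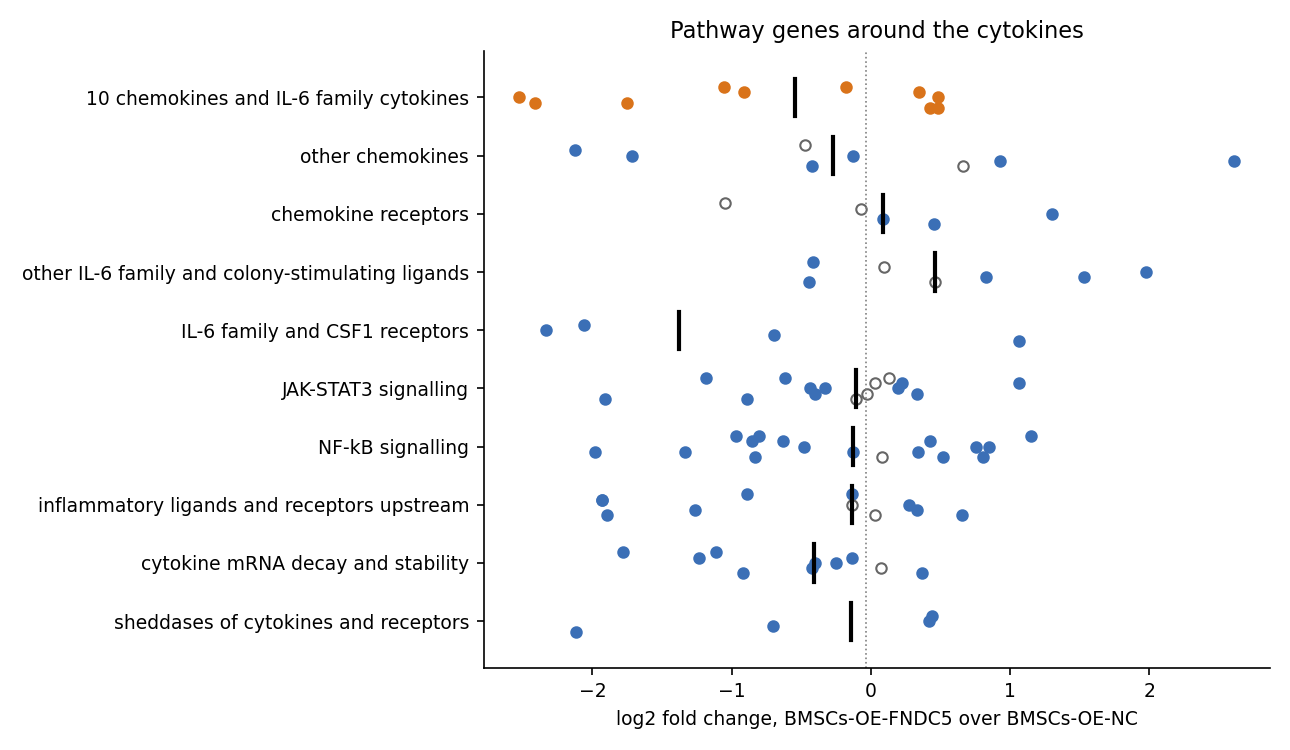
Log2 fold changes of the tested genes in the members and the 9 pathway lists, 1 point per gene, with the median of each list as a black bar and that of all genes tested as a dotted line, filled points passing the test and open ones not. The IL-6 family and CSF1 receptors have the lowest median, -1.38, with Il11ra1 alone above 0.

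The labelled cell type was checked against markers. Of 12 mesenchymal markers, 11 were tested (4 higher, 7 lower, median log2 fold change -0.98), Col1a1 was at 2835 ± 51.6 and 2232 ± 45.2 CPM (SD, n = 3 each), and their summed level was 5679 to 5805 CPM in the controls and 4345 to 4412 CPM with Fndc5. Of 11 macrophage markers in the table, Ptprc, Adgre1, Aif1, Cd163, Mrc1 and Tyrobp had 0 counts in every library. The summed level of that list was 103 to 109 against 199 to 207 CPM, nearly all of it Cd14 (98.5 ± 2.54 and 197 ± 4.85 CPM, SD, n = 3 each), and 2 of its 3 tested genes, Cd14 and Cd68, were higher. The other, Cd74, was lower (5.03 ± 0.235 to 0.535 ± 0.198 CPM, SD, n = 3 each, log2 fold change -3.22, adjusted p = 5.9e-07 by edgeR). None of 9 lymphocyte and granulocyte markers was tested, with at most 0.202 CPM summed in a library. Of 7 endothelial markers, Cdh5, Emcn, Kdr and Tie1 had 0 counts in every library and Egfl7 was tested (log2 fold change 0.81), and the sum was 51.8 to 55.3 against 90.6 to 94.0 CPM. The part of Cd14- and Egfl7-expressing cells in the results above was not tested.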

How the data were processed

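Gene counts and FPKM values were deposited for 6 libraries of BMSCs after H/SD, 3 BMSCs-OE-NC and 3 BMSCs-OE-FNDC5. The submitters' processing notes list HISAT2 2.1.0, Bowtie2 2.2.3 and TopHat2, the counter HTSeq 0.6.0, DESeq2 and CASAVA, with no step or strand setting. They also name mm10 and retinas, whereas identifiers are of rat and the labels give bone marrow. The deposited counts are whole numbers. The deposited FPKM values equal count divided by table gene length and a constant per library.

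Counts were tested in R 4.3.3 with edgeR 4.0.16 (filterByExpr, minimum count 10, minimum total 15; TMM; glmQLFit and glmQLFTest, condition only), with adjusted p-values over all 12104 genes. The procedure was tested on simulated data. RPKM is TMM-scaled CPM per kilobase of table length. Alternatives were DESeq2 1.42.0, limma-voom (limma 3.58.1), 3 other scalings, 2 other filters, the replicate block, limma-trend on log2(FPKM + 1) and log2(FPKM + 0.1), an offset for each library's length trend (lowess, span 0.3), and leaving out each library.

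The members and lists were chosen with earlier results of these data known. The text names all 10 members, all tested receptors of the members' families, the 3 most abundant tested genes of each other pathway list, and the 3 genes most correlated with Il6, Ccl2 and Csf1. Of the genes under this rule, not all are reported here. Cxcl2, Cxcl13, Adam10, Pf4, Ppbp, Tnf and genes with no counts were named after their values were seen. Promoters were searched in Python 3.11.15, and matplotlib 3.10.9 made the figures.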

Additional observations from a re-analysis of the deposited data

How the results depend on the processing

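All 6 lower members kept their direction under the 17 alternatives, and all but Lif, with the length trend removed, and Ccl20, which the filter of at least 10 counts in every library leaves out, kept their call. Of the 4 higher members, 1 (Csf1) was still called higher with the length trend removed. The members' median log2 fold change of -0.54 became -0.65 with upper-quartile scaling, -0.91 with library size only, -0.21 with at least 10 counts in every library (Ccl20 not tested), -0.51 on log2(FPKM + 1) and -0.39 with the length trend removed, and ran from -0.58 to -0.49 when each library was left out. The median of all genes moved from -0.04 to -0.14, -0.41 and 0.09 with upper-quartile scaling, library size only and the length trend removed.

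The direction turned for Cxcl1 (-0.0032) and Stat3 (0.18) with the length trend removed, for Csf3 with library size only (-0.27) and the length trend removed (-0.16), for Ackr4 with upper-quartile scaling (-0.015) and library size only (-0.28), and with library size only for Csf1 (-0.027), Tlr2 (-0.097), Myd88 (-0.037), Auh (-0.00063) and Zc3h12a (-0.30). Among these turned values, those of Stat3 and Csf3, and those of Ackr4, Tlr2 and Zc3h12a with library size only, passed the test. The uncalled values of Cebpb (0.0053 with DESeq2) and Ccr10 (0.13 and 0.02 without control or BMSCs-OE-FNDC5 replicate 3) also turned, without passing the test. The cause was not tested. Pathway genes called higher went from 26 to 15 with library size only, and all genes called higher from 4469 to 2659. With the fold threshold, all genes called higher went from 1191 to 483 with library size only, and those called lower from 2124 to 3338 with library size only, 706 on log2(FPKM + 1) and 1348 with the length trend removed.

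With the replicate number as a block, 4 members were higher and 6 lower as before, with a median of -0.54. Correlations of the deviations of same-numbered libraries were 0.0213, -0.0138 and -0.0067, so no shared effect of the replicate number was seen. These values cannot tell whether same-numbered libraries shared a rat, culture or transduction, which is not known. Cxcr3 passed under the block (-1.13). Depth limits Ccl20, with 9 to 54 counts, and the receptors with 0 counts.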

Other observations

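The genes whose levels followed 3 members most closely over the 6 libraries were taken from all other tested genes with a symbol, by Pearson's r of log2 CPM. For Il6 they were Zc3h7a (r = 0.99928), Rab5b (0.99922) and Ppil4 (0.99885). For Ccl2 they were Nt5c3b (0.99971), Nr1d1 (0.99961) and Kdelr1 (0.99959). For Csf1 they were Rpa3 (0.99923), Lztr1 (0.99876) and Fchsd1 (0.99876). The 6 libraries form 2 groups, and these values largely give the difference between the groups and are a description only.

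Outside the rule for named genes, and looked at after the values were known, Cxcl10, a chemokine induced by interferon, was scarce and higher in BMSCs-OE-FNDC5 (0.282 to 1.76 CPM, log2 fold change 2.61, adjusted p = 1.4e-04 by edgeR). Csf2, the granulocyte and macrophage factor, and Il34, which shares its receptor with CSF1, were scarce too. They were higher by 1.98 (95% interval 0.91 to 3.05) and 1.53 (0.77 to 2.30) on the log2 scale. Csf2 had 14, 2 and 14 counts in BMSCs-OE-NC and 30, 23 and 36 in BMSCs-OE-FNDC5. Il34 had 22, 18 and 10 counts in BMSCs-OE-NC and 25, 44 and 39 in BMSCs-OE-FNDC5.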
